A study of Homo sapiens with 8 samples.

Results

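The genes described here encode the subunits of the proteasome, its activators and its assembly factors. They were chosen by symbol, as every protein-coding gene whose name is PSM followed by a letter from A to G and a number. No measured value entered this rule, but it was set with earlier results of these data known. The rule gave 48 of the 58206 genes in the count table. They comprise 31 constitutive subunits, 5 interferon-inducible subunits, 10 other activators, inhibitors and assembly factors, and 2 subunits known from single tissues (PSMA8 from testis and PSMB11 from thymus). Of the 48 genes, 46 passed the expression filter and were tested. PSMA8 had no count in any library, and PSMB11 had 1 count, in Axin1+ replicate 1. In these libraries 3 counts, the limit that a count of 0 allows, corresponded to between 0.108 and 0.267 CPM (counts per 1000000 of the scaled library total).

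Proteasomes degrade proteins that carry ubiquitin chains. The core particle is a barrel whose outer rings are made of alpha subunits and whose inner rings are made of beta subunits, and 3 of the beta subunits, PSMB5, PSMB6 and PSMB7, carry the protease sites. The regulatory particle sits on the ends of the barrel, where its ATPase ring (PSMC genes) unfolds substrates and its other subunits (PSMD genes) bind ubiquitin and remove it. After interferon, PSMB8, PSMB9 and PSMB10 take the places of PSMB5, PSMB6 and PSMB7 to form the immunoproteasome, and PSME1 and PSME2 form the activator PA28, which together favour peptides for MHC class I molecules.

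RNA was sequenced from 8 samples of Alexander1, an established epithelial line from a human hepatocellular carcinoma, grown in medium with serum. The 4 samples labelled wt come from the line itself. Per the labels, its AXIN1, a scaffold of the complex that destroys beta-catenin, lacks the stretch to which the kinase GSK3 binds, which leaves Wnt signalling on at all times. The 4 samples labelled Axin1+ come from a derivative that received Axin1 from a plasmid by retroviral transfer and was selected with hygromycin B as clones, so that Axin1, the drug selection and the choice of clone cannot be told apart. The labels do not say whether the samples of a group are separate cultures, and the p-values measure the spread between these samples, which may be technical.

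Libraries held 11232951 to 15263761 counts in wt and 12372436 to 26400782 in Axin1+. The AXIN1 row did not mark the groups as labelled: it held 55.3, 52.8, 47.4 and 54.2 CPM in wt replicates 1 to 4 and 47.6, 48.0, 48.2 and 37.7 CPM in Axin1+, a log2 fold change of -0.21 with an SE of 0.12 (adjusted p = 0.267 in edgeR; exact two-sided permutation p = 0.114). The groups are therefore given by their labels throughout. Of the 12 hepatocyte markers examined all were expressed, 3 were higher and 3 lower (among them GPC3 at -2.12 and FGB at 2.05). Of all tested genes 10.4% were higher and 8.77% lower. The hepatocyte list had a summed level of 30346 to 34829 CPM in wt and 27230 to 32340 CPM in Axin1+. Of 10 haematopoietic markers 3 were expressed enough to be tested and none passed the test, CD3E and TYROBP had no counts, PTPRC, CD74, HLA-DRA and CD14 reached at most 0.534 CPM, and the summed level, nearly all of it LYZ and LCP1, was 703 to 1252 CPM in wt and 699.5 to 1158 CPM in Axin1+. Of 7 fibroblast markers 2 could be tested, of which PDGFRB was lower in Axin1+ and COL1A1 did not pass, and COL1A2 and DCN were near 0; the list summed to 2.71 to 3.29 CPM in wt and 1.38 to 4.81 CPM in Axin1+. As these are bulk samples, fewer cells with a transcript and less of it per cell cannot be told apart.

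The promoters of the interferon-inducible subunits are shown first, because 4 of the 5 share a sequence pattern that few constitutive subunits hold. RefSeq gave windows of 300 bases on GRCh38.p14, from 250 before to 50 after a gene start, for 42 of the 48 genes. A gene could have several windows, and a match in any of them counted for the gene. An interferon-stimulated response element was searched on both strands as GAAA, 2 bases of any kind and GAAA again. In the stretches below, written 5′ to 3′ on the strand of the gene, capitals mark the matches, which read TTTC where the element lies on the other strand.
PSMB8, chr6:32844017-32844076, minus strand: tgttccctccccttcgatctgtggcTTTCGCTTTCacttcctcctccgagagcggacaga
PSMB10, chr16:67936837-67936896, minus strand: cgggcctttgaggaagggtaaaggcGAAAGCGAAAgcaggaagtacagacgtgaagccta
PSME1, chr14:24136174-24136233, plus strand: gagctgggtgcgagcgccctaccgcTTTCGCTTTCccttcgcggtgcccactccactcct
PSME2, chr14:24146604-24146663, minus strand: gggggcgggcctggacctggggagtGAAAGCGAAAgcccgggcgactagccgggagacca
TAP1, chr6:32853798-32853863, minus strand: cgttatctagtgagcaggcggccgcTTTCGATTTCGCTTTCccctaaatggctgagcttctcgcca

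The pattern was present in 4 of the 5 interferon-inducible subunits (80.0%), in 2 of 26 constitutive subunits (7.69%, PSMA4 and PSMB4) and in 1195 of 27305 genes with a window (4.38%). The 4 matches among the interferon-inducible subunits had the same 10 letters, which were found in the windows of 34 of the 27305 genes (0.125%), PSMG4 among them; this count of a single word was added after the sequences had been seen. PSMB9, the fifth interferon-inducible subunit, had no match in its own window. By the RefSeq starts it begins 488 bases from TAP1, a subunit of the peptide transporter, which runs the other way, and the TAP1 match printed above lies between both starts, 119 bases from that of TAP1 and 354 bases from that of PSMB9. The GENCODE model of PSMB9, whose coordinates are given further on, begins elsewhere and spans TAP1. The core of the element bound by NFE2L1 and NFE2L2, searched as TGACNNNGC, was present in 7 of 26 constitutive subunits (26.9%) and 3 of 5 interferon-inducible ones (60.0%), and in 15 of 42 members (35.7%) against 16.1% of all genes. CCAAT was present in 15 of 26 constitutive subunits (57.7%) and 1 of 5 interferon-inducible ones (20.0%), and in 20 of 42 members (47.6%) against 39.7% of all genes. The GAS element, searched as TTCNNNGAA, was present in 5 of 26 (19.2%) and 1 of 5 (20.0%), and in 8 of 42 members (19.0%) against 9.38%. The TCF motif CTTTGAT was present in 0 of 42 members against 3.18% of all genes. A match describes the letters in these windows and no binding was measured.

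Across the 46 tested genes few differed between the groups, and none of the interferon-inducible subunits passed the test. By edgeR's quasi-likelihood test with Benjamini-Hochberg adjustment over all 14289 tested genes, 7 of the 46 genes (15.2%) had an adjusted p under 0.05, where the share among all tested genes was 19.2%. PSMD11, PSMD3, PSMD8 and PSME3 were higher in Axin1+ (8.70% of the 46, against 10.4% of all genes) and PSMG3, PSMA5 and PSMF1 were lower (6.52%, against 8.77%). The groups did not overlap for 8 members (17.4%, against 23.9%), the 7 called genes and PSMD12. These shares are near those of the whole table. The count of 7 became 2 without Axin1+ replicate 4 and 3 without wt replicate 2, wt replicate 3 or Axin1+ replicate 3. The median log2 fold change was 0.05 over the 46 genes and 0.003 over all tested genes, and the extremes were -0.89 and 0.54.

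The differences of the proteasome genes were small in size. The log2 fold change lay within 0.5 of 0 for 43 of 46 members (93.5%) and for 69.8% of all tested genes. Its median size without sign was 0.17 among members (quartiles 0.08 and 0.35), 0.31 among all tested genes (0.14 and 0.57) and 0.24 among the 4231 genes with a wt mean of at least 50 CPM (0.11 and 0.42). For 24 members, 19 of them constitutive subunits, the 95% interval of the log2 fold change lay within 0.5 on either side of 0. The summed level of all members was 7907 ± 381 CPM in wt and 8120 ± 539 CPM in Axin1+ (SD, n = 4 each).

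**Figure D1:**
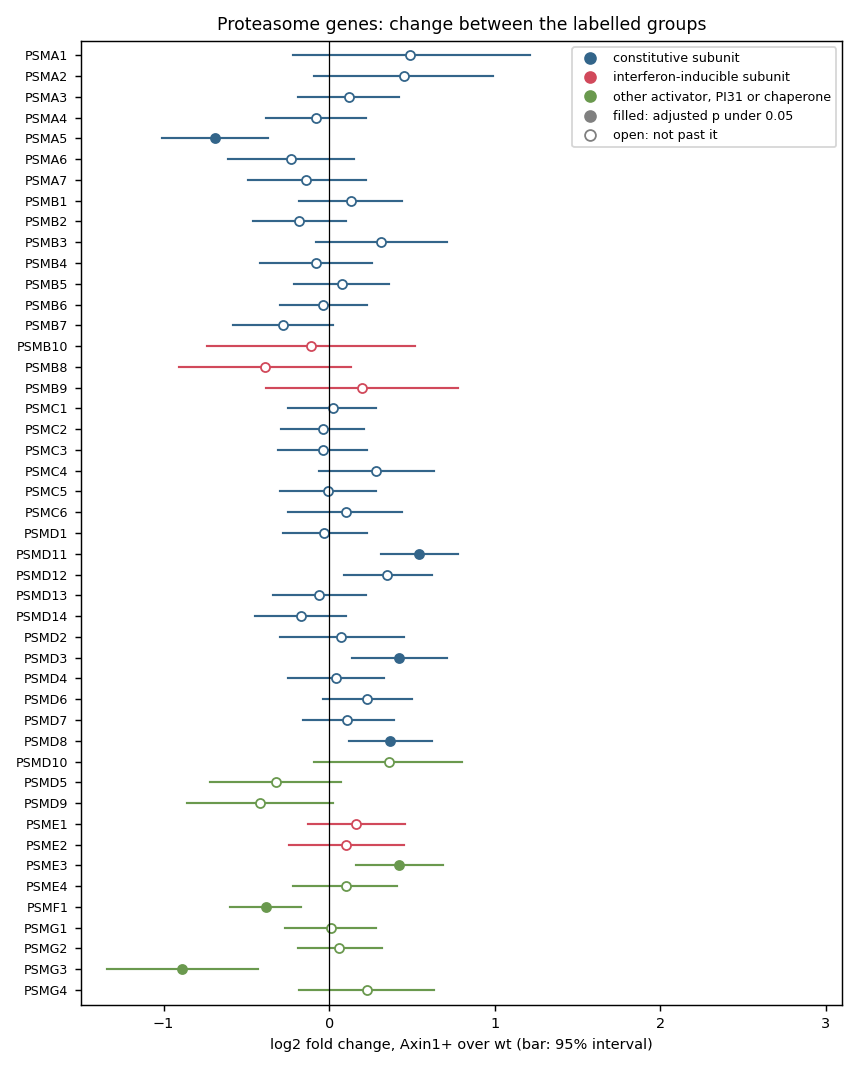
Log2 fold change between Axin1+ and wt (horizontal axis) for each of the 46 tested proteasome genes (vertical axis), with bars for 95% intervals; filled points have an adjusted p under 0.05, and colours mark constitutive subunits, interferon-inducible subunits and the other activators, PI31 and assembly factors. The 7 filled points lie between -0.89 for PSMG3 and 0.54 for PSMD11, and the 5 interferon-inducible subunits, all open, lie between -0.39 and 0.20.

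Constitutive and interferon-inducible catalytic subunits were expressed at very different levels in both groups. Levels between genes are given as CPM per kilobase of annotated exon, as group means. PSMB5, PSMB6 and PSMB7 stood at 158, 198 and 275 CPM per kilobase in wt and at 167, 193 and 227 in Axin1+. Their interferon-inducible counterparts PSMB8, PSMB9 and PSMB10 stood at 8.42, 2.75 and 2.32 CPM per kilobase in wt and at 6.39, 3.14 and 2.18 in Axin1+. The PA28 genes PSME1 and PSME2, in contrast, reached 73.3 and 101 CPM per kilobase in wt and 82.1 and 108 in Axin1+, within the range of the constitutive subunits. The 28 constitutive genes that share no exon with another coding gene on their strand ranged from 21.0 to 447 CPM per kilobase in wt, with a median of 106, and from 26.8 to 424 in Axin1+, with a median of 108.

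Exons shared on the same strand limit how far the levels of 5 members can be read. PSMA1, PSMA2, PSMA6, PSMB10 and PSMD9 share 35.7%, 52.5%, 63.9%, 45.3% and 43.8% of their annotated exon bases with a read-through or other coding gene of the same strand, and how the counting treated reads that fall in both is not given in the sources used here. The 3 constitutive subunits among them, PSMA1, PSMA2 and PSMA6, stood at only 2.32 to 7.96 CPM per kilobase in wt, below the other 28 constitutive genes. The low level of PSMB10 is under the same limit, and PSMB9 shares 15.1% of its exon bases with the antisense gene PSMB8-AS1, which runs on the strand of PSMB9. Whether lost reads lower these levels was not tested. The use of strand in the counting is not given either. On the opposite strand the largest shares, over the exons of all transcripts, were 75.8% for PSMC1, 30.7% for PSMD7 and 20.6% for PSMB8. The part of these overlaps in the counts was not tested. Of 32 annotated pseudogenes of members 13 had counts, at most 2.05% of those of their parent gene (PSMD10P2).

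None of the constitutive catalytic subunits passed the test. PSMB5, which carries the chymotrypsin-like site (ENSG00000100804, chromosome 14), held 199.98, 233, 226 and 265 CPM in wt replicates 1 to 4 and 213, 255, 270.4 and 239 CPM in Axin1+, with a log2 fold change of 0.08 (95% interval -0.21 to 0.36, adjusted p = 0.708). PSMB6, the caspase-like subunit, held 188, 156, 155 and 191 CPM in wt and 166, 165, 183 and 159 CPM in Axin1+ (log2 fold change -0.04, interval -0.30 to 0.23, adjusted p = 0.857). PSMB7, the trypsin-like subunit, held 309, 262, 231 and 277 CPM in wt and 204, 264, 222 and 199 CPM in Axin1+ (-0.28, interval -0.58 to 0.02, adjusted p = 0.182). The ranges of the groups overlapped for all 3 genes, and a fall of PSMB7 by up to 0.58 on the log2 scale remains within its interval.

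The interferon-inducible catalytic subunits were low in every library. PSMB8 (ENSG00000204264, in the MHC region at chr6:32840717-32844703 of GRCh38) held 13.0, 12.7, 14.6 and 11.8 CPM in wt and 15.4, 7.76, 9.12 and 7.34 CPM in Axin1+. Axin1+ replicate 1 was the highest of all 8 libraries, while the other 3 Axin1+ libraries lay below all wt libraries. The log2 fold change was -0.39 (SE 0.24, interval -0.91 to 0.13, adjusted p = 0.278). Without Axin1+ replicate 1 it was -0.69 with an edgeR adjusted p of 0.019, and PSMB8 was then called lower. Over all alternatives the adjusted p ranged from 0.00985 to 0.534. The same library stood apart in other genes: LCP1, an actin-bundling protein, held 237 CPM there against 24.6 to 26.8 CPM in the other Axin1+ libraries and 279.8 to 318 CPM in wt, and ALB, serum albumin, held 13.8 CPM against 445 to 681 CPM. The part of that library's other differences in the PSMB8 result was not tested.

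PSMB9, the neighbour of PSMB8 (chr6:32844136-32859585), held 2.76, 1.96, 2.32 and 3.08 CPM in wt and 3.52, 2.48, 3.30 and 2.26 CPM in Axin1+ (log2 fold change 0.20, interval -0.38 to 0.78, adjusted p = 0.636). PSMB10 on chromosome 16 held 3.38, 3.11, 2.67 and 2.15 CPM in wt and 2.296, 3.96, 2.27 and 2.11 CPM in Axin1+ (-0.11, interval -0.74 to 0.52, adjusted p = 0.822). Both pairs of ranges overlapped. With so few counts the intervals of these genes are wider than those of PSMB5, PSMB6 and PSMB7, and a difference of 0.5 on the log2 scale in either direction lies inside the interval of PSMB10. The 3 genes together summed to 18.4 ± 1.18 CPM in wt and 15.4 ± 4.05 CPM in Axin1+ (SD, n = 4 each), against 674 ± 52.8 and 635 ± 51.9 CPM for PSMB5, PSMB6 and PSMB7.

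**Figure D2:**
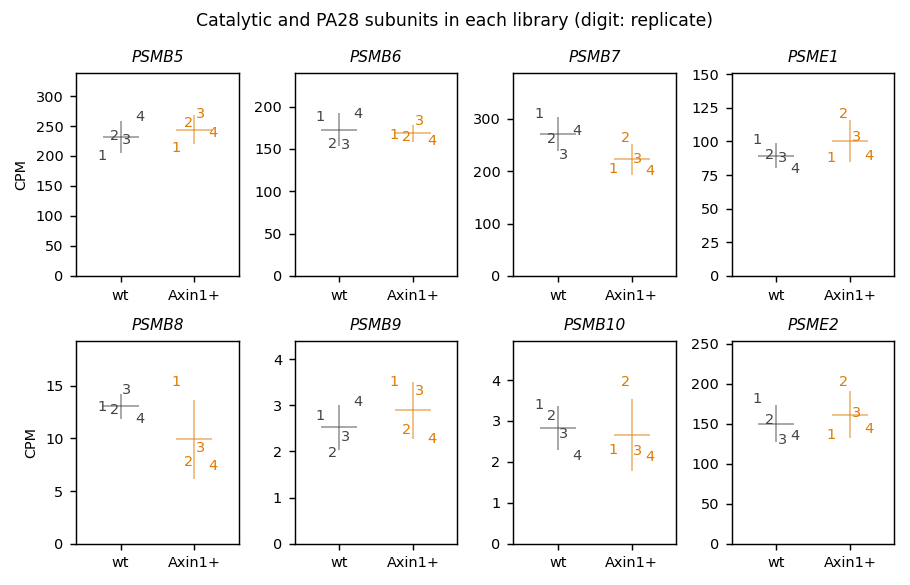
Level in CPM (vertical axes, each from 0) of the constitutive catalytic subunits and of the interferon-inducible subunits in wt and Axin1+; each digit is the replicate number of a library, horizontal lines are means and vertical lines 1 SD (n = 4). The groups overlap in all 8 panels, and in that of PSMB8 Axin1+ replicate 1, at 15.4 CPM, lies above the other Axin1+ libraries, at 7.34 to 9.12 CPM.

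The balance between the counterparts was compared within each library, which does not depend on library scaling. For 100 counts of PSMB5 there were 4.45 to 6.5 counts of PSMB8 in wt, and 7.24 in Axin1+ replicate 1 but 3.05 to 3.37 in the other 3 Axin1+ libraries. The log2 ratio of PSMB8 to PSMB5 was -4.15 ± 0.26 in wt and -4.69 ± 0.60 in Axin1+ (SD, n = 4 each), a difference of -0.54 (exact two-sided permutation p = 0.171, 0.343 after adjustment over the 3 pairs). Without Axin1+ replicate 1 the difference was -0.84, with an adjusted exact permutation p of 0.0857, which is the lowest value that 1 pair alone can reach with 35 labelings and could not pass. That of PSMB9 to PSMB6 was -6.11 ± 0.15 and -5.89 ± 0.26, a difference of 0.22 (exact permutation p = 0.229, adjusted 0.343). That of PSMB10 to PSMB7 was -6.59 ± 0.29 and -6.43 ± 0.25, a difference of 0.16 (exact permutation p = 0.543, adjusted 0.543). The differences had no common direction, none passed the test, and the smallest p these 70 labelings can give is 0.0286.

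The PA28 activators did not separate the groups. PSME1 held 101, 89.6, 87.6 and 79.6 CPM in wt and 87.5, 120.5, 104 and 89.4 CPM in Axin1+ (log2 fold change 0.16, interval -0.13 to 0.46, adjusted p = 0.428). PSME2 held 180.3, 154, 130.1 and 135 CPM in wt and 136, 203, 163 and 143 CPM in Axin1+ (0.10, interval -0.24 to 0.45, adjusted p = 0.679). Both genes, which lie close together on chromosome 14, were highest in wt replicate 1 within wt and in Axin1+ replicate 2 within Axin1+. This order was not particular to them, as members on other chromosomes had it too, among them PSMA7, PSMB3, PSMB4, PSMB7 and PSMC4.

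Among the other activators and inhibitors, 2 genes changed, in opposite directions, beside 19.2% of all tested genes. PSME3 encodes PA28 gamma, the nuclear activator that works without ubiquitin. It held 194, 221, 227 and 235 CPM in wt and 309.7, 259, 308 and 299.7 CPM in Axin1+, without overlap (log2 fold change 0.42, SE 0.12, adjusted p = 0.0302). PSMF1 encodes PI31, a regulator first described as an inhibitor of the core particle. It held 122, 121, 122 and 118 CPM in wt and 89.5, 96.8, 94.8 and 89.1 CPM in Axin1+, the tightest groups among the called genes (log2 fold change -0.38, SE 0.10, adjusted p = 0.0219). Both calls were lost without wt replicate 2 or 3 or Axin1+ replicate 3 or 4, at log2 fold changes between 0.40 and 0.44 for PSME3 and between -0.39 and -0.36 for PSMF1. PSME4, the activator PA200, held 102, 121, 131 and 130.3 CPM in wt and 153, 105, 122 and 137 CPM in Axin1+ (0.10, interval -0.22 to 0.41, adjusted p = 0.676).

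Of the 7 alpha subunits, which gate the core, 1 changed, beside 19.2% of all tested genes. PSMA5 (chromosome 1) held 222, 208, 206 and 212 CPM in wt and 169, 130.4, 119.8 and 107 CPM in Axin1+. The wt libraries lay within a narrow range and all Axin1+ libraries below it, with replicate 1 the nearest to wt. Its log2 fold change of -0.69 (SE 0.14, interval -1.01 to -0.37, adjusted p = 0.00888) passed the test under all 18 alternatives, at -0.83 to -0.60. The other alpha subunits ranged from -0.23 (PSMA6) to 0.49 (PSMA1), and none passed.

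The 2 largest positive values among the alpha subunits came from genes that share exons. PSMA1 held 12.9, 22.1, 21.3 and 10.7 CPM in wt and 14.3, 37.0, 16.6 and 26.7 CPM in Axin1+ (log2 fold change 0.49, interval -0.22 to 1.21, adjusted p = 0.317). PSMA2 held 2.94, 4.67, 3.21 and 3.01 CPM in wt and 3.59, 5.04, 4.78 and 5.58 CPM in Axin1+ (0.45, interval -0.09 to 0.99, adjusted p = 0.226). The groups overlapped for both. The 4 beta subunits without a protease site, PSMB1, PSMB2, PSMB3 and PSMB4, ranged from -0.18 to 0.31, and none passed.

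In the regulatory particle, the 6 ATPases of the ring (PSMC1 to PSMC6) had log2 fold changes from -0.04 to 0.28. EdgeR, DESeq2 and limma-voom each called 0 of them, and 0 had an unadjusted p under 0.05 in edgeR. Among the 11 other subunits 3 were higher and none lower, beside 10.4% higher and 8.77% lower of all tested genes. PSMD11, a scaffold subunit of the lid, held 131, 136, 137 and 146 CPM in wt and 209, 187, 192 and 214 CPM in Axin1+, with all Axin1+ libraries well above wt (log2 fold change 0.54, SE 0.11, adjusted p = 0.00632). The call held under all 18 alternatives, at 0.50 to 0.63. PSMD3, another lid subunit, held 199.8, 198, 191 and 259 CPM in wt and 301, 271, 290.3 and 272 CPM in Axin1+ (0.42, SE 0.13, adjusted p = 0.0432). PSMD8, also of the lid, held 243, 205, 213 and 206 CPM in wt and 271, 279, 305 and 268 CPM in Axin1+ (0.37, SE 0.11, adjusted p = 0.0429).

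The calls of PSMD3 and PSMD8 lay close to the threshold. That of PSMD3 was lost on leaving out any single library except wt replicate 4, at log2 fold changes between 0.37 and 0.44. That of PSMD8 was lost on leaving out any single library except wt replicate 1 and Axin1+ replicate 1, at values between 0.33 and 0.40. Without an expression filter PSMD3, PSMD8, PSME3 and PSMF1 were not called, nor was PSMF1 with total-count scaling or PSMD8 with upper-quartile scaling. PSMD12, also of the lid, held 87.0, 99.9, 101 and 81.1 CPM in wt and 122, 125, 103 and 122 CPM in Axin1+. Its groups did not overlap, and with a log2 fold change of 0.35 (SE 0.12) and an adjusted p of 0.0635 it missed the threshold, which it passed in 2 of the 18 alternatives, DESeq2's test and total-count scaling. The remaining 7 non-ATPase subunits had log2 fold changes from -0.17 (PSMD14, the deubiquitinase of the lid) to 0.23 (PSMD6). The summed level of the 11 genes was 2263 ± 190.3 CPM in wt and 2509 ± 51.5 CPM in Axin1+ (SD, n = 4 each).

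**Figure D3:**
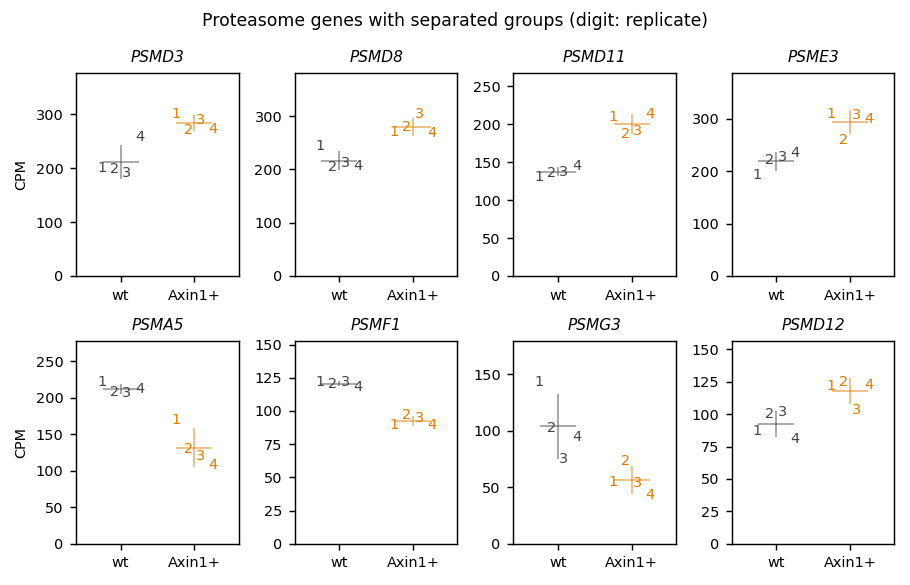
Level in CPM (vertical axes, each from 0) of the 8 proteasome genes whose groups do not overlap, in wt and Axin1+; each digit is the replicate number of a library, horizontal lines are means and vertical lines 1 SD (n = 4). PSMD11 is separated by a gap from 146 to 187 CPM, whereas PSMD12 and PSMG3 are separated by gaps of under 3 CPM.

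The assembly factors included the proteasome gene with the largest change. PSMG3, a chaperone of the alpha ring, held 143, 102, 74.8 and 94.4 CPM in wt and 54.9, 72.8, 53.9 and 43.3 CPM in Axin1+. The lowest wt library and the highest Axin1+ library lay close to each other, and the wt libraries varied widely (log2 fold change -0.89, SE 0.21, adjusted p = 0.0153). The call was lost without Axin1+ replicate 4, where the log2 fold change was -0.78. PSMG1, PSMG2 and PSMG4, the other core chaperones, had log2 fold changes of 0.01, 0.06 and 0.23, and none passed. Of the chaperones of the regulatory particle, PSMD9 held 15.04, 10.8, 10.2 and 8.73 CPM in wt and 8.04, 8.59, 9.51 and 7.22 CPM in Axin1+ (-0.42, SE 0.20, adjusted p = 0.166). PSMD5 (-0.32, adjusted p = 0.234) and PSMD10 (0.36, adjusted p = 0.246) did not pass either.

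By class, 4 of 31 constitutive subunits were called (3 higher, 1 lower), 0 of 5 interferon-inducible subunits, and 3 of the 10 other activators, inhibitors and assembly factors (1 higher, 2 lower), beside the 19.2% of all genes. The median log2 fold change was 0.04 among constitutive and 0.10 among interferon-inducible subunits, against 0.003 over all genes. None of the interferon-inducible subunits had an unadjusted p under 0.05, and DESeq2 and limma-voom called 0 of them too. With 5 genes, 2 of them at under 4 CPM, the counts of the classes differ by few genes, and no test of a difference between the classes was made.

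The called genes moved in the same direction as the genes around them. For each tested gene the median log2 fold change of the 40 nearest tested genes on its chromosome was taken, 20 on each side. Near a chromosome end fewer genes were available on that side, and the median was taken over those present. This median had the sign of the gene for all 7 called members and for 76.9% of the 2734 called genes of the table that had one. PSMA5 had a value of -0.69 in surroundings at -0.62, PSMD11 0.54 at 0.42, PSMD3 0.42 at 0.37, PSMD8 0.37 at 0.17 and PSME3 0.42 at 0.24. PSMF1 had -0.38 at -0.25 and PSMG3 -0.89 at -0.49, the latter the furthest of the 7 from its surroundings, by -0.39. Counting members that were not called, the signs were the same for 37 of 46.

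Over the 46 members, some of which are neighbours themselves (PSMB8 with PSMB9, PSME1 with PSME2), Pearson's r between a gene's log2 fold change and the median of its surroundings was 0.67 and Spearman's rho 0.61, and over 14260 genes 0.29 and 0.41. These are descriptions: all values come from the same 8 libraries, and neighbouring windows share genes. Chromosome 17 carries 7 tested members, 3 of them called higher (PSMD11, PSMD3 and PSME3). Of the 899 tested genes of that chromosome 19.2% were called higher, against 10.4% of all tested genes. Their median log2 fold change was 0.17, against 0.003 over all tested genes. The part of regional differences in the calls of single members was not tested.

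**Figure D4:**
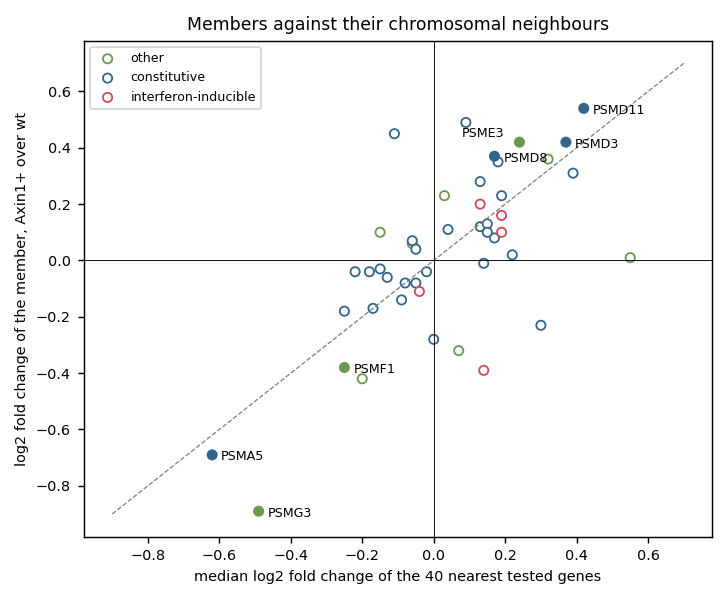
Log2 fold change between Axin1+ and wt of each tested proteasome gene (vertical axis) against the median log2 fold change of the 40 nearest tested genes on its chromosome, fewer near a chromosome end (horizontal axis). Filled points have an adjusted p under 0.05, and the dashed line marks equal values. All 7 filled points lie in the lower left or upper right part, from PSMG3 at -0.89 to PSMD11 at 0.54.

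Of 16 genes of MHC class I antigen presentation, in which the immunoproteasome takes part, 10 were higher and none lower (10.4% and 8.77% of all tested genes were), with a median log2 fold change of 0.60. The 6 others did not pass, and among them CALR (-0.23), TAPBPL (-0.21) and PDIA3 (-0.12) had negative log2 fold changes. No test compared this list with the interferon-inducible subunits. The part of regional differences in the calls of this list was not tested either. HLA-B held 26.6, 19.7, 25.1 and 19.0 CPM in wt and 69.5, 80.5, 79.0 and 78.7 CPM in Axin1+ (1.77, SE 0.14, adjusted p = 3.28e-05). HLA-C rose by 1.05 (SE 0.13, adjusted p = 0.000571) and CANX, the chaperone calnexin, by 1.08 (SE 0.18, adjusted p = 0.00239). The annotated spans of HLA-B and HLA-C overlap on the same strand, and the part of this overlap in their counts was not tested. NLRC5, a transactivator of class I genes, held 1.51, 0.474, 0.624 and 0.358 CPM in wt and 1.87, 2.72, 1.97 and 3.08 CPM in Axin1+ (1.72, SE 0.43, adjusted p = 0.0194), a call lost without wt replicate 2 or 3 or Axin1+ replicate 4. B2M, the light chain of class I molecules, held 313, 459, 492 and 418 CPM in wt and 558, 641, 643 and 681 CPM in Axin1+ (0.59, SE 0.16, adjusted p = 0.0246). The B2M call was lost without wt replicate 2 or 4 or Axin1+ replicate 2, 3 or 4.

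TAP1, the neighbour of PSMB9 whose promoter stretch is printed above, held 40.7, 36.2, 35.1 and 37.7 CPM in wt and 45.6, 42.2, 51.1 and 48.1 CPM in Axin1+. Its groups did not overlap, while those of PSMB9 did, and its log2 fold change of 0.32 (SE 0.12, adjusted p = 0.0793) missed the threshold. The difference between the response of TAP1 and that of PSMB9 was not tested. The pattern of the response element was present in the windows of 7 of 12 antigen presentation genes (58.3%), against 4.38% of all genes. Of the 8 called higher that had a window 5 held it (62.5%), as did TAP1 and TAP2, which were not called.

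**Figure D5:**
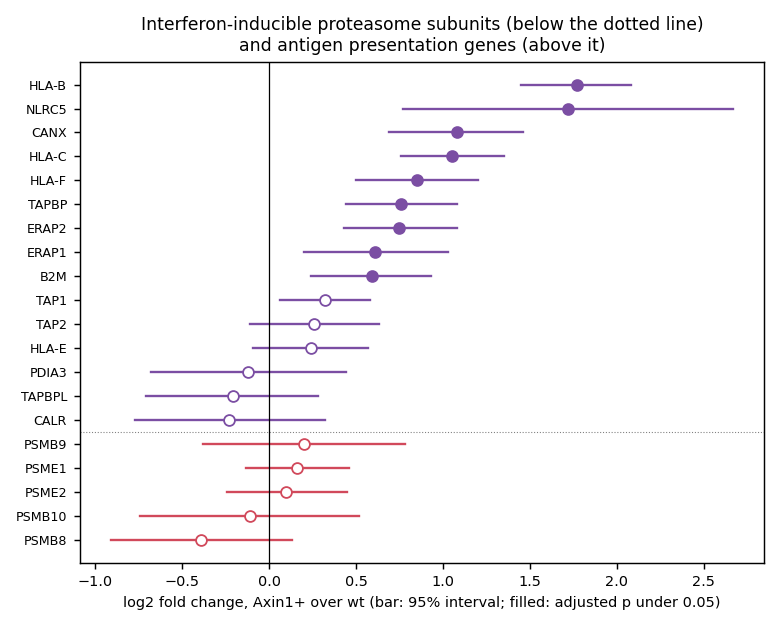
Log2 fold change between Axin1+ and wt (horizontal axis) with 95% intervals for 15 of the 16 antigen presentation genes above the dotted line and the 5 interferon-inducible proteasome subunits below it; filled points have an adjusted p under 0.05. The 9 filled points above the line lie between 0.59 for B2M and 1.77 for HLA-B, and the proteasome subunits between -0.39 and 0.20.

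Of the 15 tested genes of interferon signalling 5 were higher and 2 lower, against 10.4% and 8.77% of all tested genes, with a median of 0.34. IFNGR1, a chain of the interferon gamma receptor, rose by 0.96 (SE 0.14, adjusted p = 0.00149), while IFNGR2, the other chain, fell by 0.40 on the log2 scale (adjusted p = 0.0284). TYK2, a kinase of the type I receptor, rose by 0.63 (SE 0.11, adjusted p = 0.00419). IRF1, a factor known to bind elements of the kind shown above, held 20.7, 15.8, 15.1 and 17.5 CPM in wt and 23.8, 26.7, 25.5 and 22.4 CPM in Axin1+ (0.51, SE 0.15, adjusted p = 0.0331). Its call was lost on leaving out any single library except replicate 1 of either group. GBP2, an interferon-inducible GTPase, fell by 0.96 on the log2 scale (adjusted p = 0.0117).

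Of 16 factors that bind, build or feed the proteasome but carry other names, 3 were higher and 1 lower, with a median log2 fold change of -0.09; the share called over all tested genes was 19.2%. UBQLN2, a shuttle that brings ubiquitin conjugates to the proteasome, held 23.2, 29.04, 35.9 and 33.3 CPM in wt and 76.5, 66.5, 86.1 and 109 CPM in Axin1+ (1.48, SE 0.18, adjusted p = 0.000522). USP14, a deubiquitinase docked on the regulatory particle, rose by 0.72 (SE 0.14, adjusted p = 0.00541). VCP, the unfoldase upstream of the proteasome, rose by 0.52 (SE 0.13, adjusted p = 0.0192), a call lost without wt replicate 2 or Axin1+ replicate 3 or 4. ECPAS, a proteasome adaptor, fell by 0.38 (adjusted p = 0.0442). POMP, the assembly factor of the core, held 204, 205, 185 and 147 CPM in wt and 126, 187, 143 and 149.9 CPM in Axin1+ (-0.29, SE 0.15, adjusted p = 0.211).

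NFE2L1 is the transcription factor known to raise proteasome genes together when proteasome activity is short. It held 485, 388, 436 and 438 CPM in wt and 638, 579, 647 and 658 CPM in Axin1+ (0.53, SE 0.12, adjusted p = 0.0134), a call lost without wt replicate 2. Of the 10 genes of its axis 2 were higher (NFE2L1 and its competitor BACH1, at 0.59) and 1 was lower (the partner MAFF, at -1.03), with a median of -0.11, beside 19.2% of all tested genes called. BACH1's call was lost without wt replicate 2, 3 or 4 or Axin1+ replicate 1 or 4. Among the constitutive subunits, 17 had positive and 14 negative log2 fold changes. Of the 6 genes that supply and activate ubiquitin 1 passed, RPS27A, which encodes ubiquitin fused to a ribosomal protein and fell by 0.81 on the log2 scale (SE 0.22, adjusted p = 0.0266), a call lost without wt replicate 2 or Axin1+ replicate 3 or 4.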

How the data were processed

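Raw read counts of each gene, whole numbers without normalization, were deposited as a single table; every column matched a sample label. The submitters' processing notes name GRCh38, bcl2fastq, fastp 0.23.1 and STAR 2.7.4 without their roles. The counting program, annotation and use of strand are not given in the sources used here. Total RNA was made into mRNA libraries, per the labels.

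Symbols, exons and coordinates came from GENCODE release 29 (57943 of 58206 identifiers found) and from a symbol table (57495 found), promoters from RefSeq. In R 4.3.3, edgeR 4.0.16 (filterByExpr with minimum count 10 and total 15, TMM, quasi-likelihood test without covariates) compared 4 with 4 libraries. P-values were two-sided and adjusted over 14289 genes, with a threshold of 0.05. TMM factors were 0.897 to 1.06. Libraries of the same label correlated at 0.948 to 0.990 and differed by more than sampling noise.

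Alternatives, DESeq2 1.42.0 and limma 3.58.1 (voom) among them, are given in the closing section. The edgeR, DESeq2 and limma-voom tests were checked on simulated data, with changes larger than those of the called members. The permutation tests were not checked in this way. The members, lists and tests were chosen with earlier results of these data known. Values per library are given for PSMB5 to PSMB10, PSME1 to PSME4, every called member and the 3 highest and 3 lowest log2 fold changes; other genes come from each list by smallest p (at most 3) or by role, and AXIN1 as a label check. PSMD12, LCP1, ALB, GBP2, IFNGR2, ECPAS, CALR, TAPBPL and PDIA3 were named after their values were seen. Some genes of the lists are not reported here by name.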

Additional observations from a re-analysis of the deposited data

Results flagged for a closer look

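In 10 of 146 groups of 4 libraries, 1 library lay so far from the others that its gap exceeded Dixon's 95% critical share of the range; chance gives about 1 in 20. Among proteasome genes, PSMA2 was high in wt replicate 2, at 4.67 CPM against 2.94 to 3.21 in the other wt libraries. PSMB10 was high in Axin1+ replicate 2, at 3.96 CPM against 2.11 to 2.296. PSMD3 was high in wt replicate 4, at 259 CPM against 191 to 199.8. PSMD5 was low in wt replicate 1, at 36.1 CPM against 60.0 to 64.5. PSMD12 was low in Axin1+ replicate 3, at 103 CPM against 122 to 125. The number of PSMB8 counts for 100 PSMB5 counts was high in Axin1+ replicate 1, at 7.24 against 3.05 to 3.37.

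Outside the proteasome, Axin1+ replicate 1 was low in HLA-B, at 69.5 CPM against 78.7 to 80.5, and in FGB, fibrinogen beta, at 2257 CPM against 3452 to 3503. CANX was high in wt replicate 3, at 909.7 CPM against 709.7 to 739, and AXIN1 was low in Axin1+ replicate 4, at 37.7 CPM against 47.6 to 48.2.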

How the results depend on the processing

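The count of 7 called proteasome genes (4 higher, 3 lower, 4 of them constitutive) was 3 without an expression filter (1 higher, 2 constitutive). It was 3 with the replicate number as a block (1 higher, 2 constitutive) and 2 at an adjusted p under 0.01 (1 higher, 1 lower, 2 constitutive). In place of 2738 genes of the whole table, 3196 were called without the filter, 2033 with the block and 964 at an adjusted p under 0.01. Same-numbered libraries did not deviate together (correlations -0.063, 0.0067, -0.032 and 0.23, and 1 library pair matched best by number), so the numbers were not taken to pair the samples. With the block the 3 within-library ratios kept their differences, and the adjusted exact permutation p was 0.375 for each, but 16 sign patterns cannot give a p below 0.125. The block ended the calls of PSMD3, PSMD8, PSME3 and PSMF1. With 1 library left out at a time, 2 to 7 members were called (1 to 3 higher, 1 to 4 lower, 2 to 3 constitutive, 0 to 1 interferon-inducible), against 1394 to 3523 genes of the table. Fewest were called without Axin1+ replicate 4 (2 members), and 3 without wt replicate 2, wt replicate 3 or Axin1+ replicate 3. The medians ranged from -0.04 to 0.07 (constitutive) and from -0.02 to 0.20 (interferon-inducible), and the differences of the ratios from -0.84 to -0.42 for PSMB8 over PSMB5, 0.11 to 0.30 for PSMB9 over PSMB6 and 0.02 to 0.23 for PSMB10 over PSMB7. With 35 labelings 1 pair alone cannot reach an adjusted exact permutation p below 0.0857, so these p-values say nothing about stability. Leaving out both replicate 1 libraries, an alternative chosen after seeing the data, gave 4623 genes of the table, 10 members, 5 of them lower, and 1 interferon-inducible subunit, PSMB8, at -0.69. Leaving out libraries leaves fewer samples, and the cause of the other changes was not tested. Of 43 genes followed singly under 18 alternatives, no called gene changed sign, PSMB6, PSMB10, PSME2 and PSME4, which were not called, did, 13 lost a call under at least 1 and 2, PSMB8 and TAP1, gained one. Of the members not followed singly, PSMD12 and PSMD5 were called under 2 alternatives each, and PSMB3 and PSMC4 under 1. Low counts limit PSMB9 and PSMB10.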
